A study of Sus scrofa with 15 samples.

Results

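The inhibin, activin and follistatin genes were followed through the testis transcriptome of male piglets fed 5 diets. The 10 genes were taken by symbol, and all 10 were found among the 30476 genes of the table. No value entered that rule, but the list was drawn up with earlier results of these data known. They are INHA, INHBA and INHBB, which encode the subunits of inhibin and activin, FST and FSTL3, which encode secreted proteins that bind activin, the receptor genes ACVR1B, ACVR2A and ACVR2B, the co-receptor gene TGFBR3 and the pseudoreceptor gene BAMBI. Testes were collected at postnatal day 21, and 3 piglets of each group were sequenced, with 1 RNA-seq library each. All piglets suckled until postnatal day 2 and then drank from bowls. Sow piglets were given bought sow milk, Milk piglets a formula from cow's milk and Soy piglets a soy-based one, while M + E2 and M + G got the formula of Milk with 17-beta-estradiol or with genistein, an isoflavone of soy. A contrast with Sow thus joins formula in place of sow milk and any added compound, while M + E2 and M + G differ from Milk by the added compound. No genetic modification was involved, and whole testes with all of their cell types were used. In the table, 1 Sow and 1 Soy library carry no number and are called Sow unnumbered and Soy unnumbered here.

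A dimer of the alpha subunit (INHA) with a beta subunit (INHBA or INHBB) is inhibin, which lowers the release of follicle-stimulating hormone (FSH) by the pituitary, and a dimer of beta subunits is activin, which raises it. Activin binds the type II receptors ACVR2A and ACVR2B, which then engage the type I receptor ACVR1B and the SMAD proteins, and inhibin competes for the type II receptors with the help of TGFBR3, also known as betaglycan. In the testis of young animals, Sertoli cells, which line the seminiferous cords and carry the FSH receptor, are the main source of inhibin, and activin acts within the gonad on Sertoli cell division and on germ cells.

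Between 6097552 and 9488579 reads per library (median 8198038) were counted on genes. Levels are CPM, the reads of a gene relative to all reads of its library, after scaling of library sizes by the TMM method, whose factors were from 1.087 to 1.138 in M + E2 and from 0.762 to 0.9567 in Sow. All 10 genes passed the expression filter, and the fewest reads of any of them in a library were 13, for FST in Sow unnumbered. Tests used 14 libraries, since Sow 2 was left out, so that Sow had 2 libraries there. On log2 CPM the lowest correlation of Sow 2 with another library was 0.865, shared with Soy 3. The next lowest were 0.885 in M + E2 2 and 0.887 in M + E2 1 and Milk 3, and these libraries and Soy 3 were kept. Within its own group Sow 2 had a mean correlation of 0.97, while Milk and Soy libraries had 0.941 to 0.967. No listed marker gene of Sertoli, Leydig, germ or peritubular myoid cells found in the table was at 0 in any library. The same held for the listed endothelial, epithelial, red cell, macrophage and T cell markers, so this could not test the labelled tissue. The Leydig genes HSD3B1 and LHCGR and the germ cell genes DAZL and NANOS2 were not found by symbol and were not analysed here.

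None of the 10 genes was called between any 2 diets, where called means an adjusted p of 0.05 or less over all 15634 genes tested and a change of at least 2-fold, by edgeR's quasi-likelihood test. The gene nearest to a call was INHBA, the beta A subunit shared by inhibin A and activin A, which was highest in M + E2. INHBA differed at an unadjusted p under 0.05 between M + E2 and each of Sow, Milk and Soy, and ACVR2B, a type II activin receptor, between M + E2 and each of Sow and Milk. These 5 results were the full set at that level over the 10 comparisons of diets. DESeq2 and edgeR's exact test likewise gave no call at the same thresholds.

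INHBA was measured at 183.0, 160.1 and 188.8 CPM in M + E2. The Sow libraries held 97.26 (unnumbered), 76.67 (Sow 2) and 90.45 (Sow 3) CPM. Milk libraries had 96.96, 74.28 and 157.6 CPM of INHBA. Every M + E2 library lay above every Sow and every Milk library, although Milk 3 came within a few CPM of the lowest M + E2 library. In Soy the gene was at 105.4 (unnumbered), 114.3 and 91.39 CPM, and in M + G at 130.7, 86.70 and 159.0 CPM. The order of the group means was M + E2 (177.3 ± 15.15 CPM, SD, n = 3), M + G (125.5 ± 36.43), Milk (109.6 ± 43.10), Soy (103.7 ± 11.54) and Sow (88.12 ± 10.49), and no neighbours in this order had an unadjusted p under 0.05.

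The log2 fold change of INHBA between M + E2 and Sow was 0.85 (SE 0.297, 95% interval 0.21 to 1.49), with an unadjusted p of 0.0129 and an adjusted p of 0.074 by edgeR's quasi-likelihood test. With all 3 Sow libraries it was 1.01 with an adjusted p of 0.0114, which is a call, so that the place of INHBA relative to the thresholds rested on Sow 2. Against Milk the log2 fold change was 0.67 (SE 0.26, interval 0.11 to 1.23; unadjusted p = 0.0225, edgeR adjusted p = 0.24). Without Milk 3 this became 1.02, with an adjusted p of 0.021. Between Soy and M + E2 it was −0.72 (SE 0.26; unadjusted p = 0.0159, edgeR adjusted p = 0.271), with all Soy libraries below all M + E2 libraries. In the test of any difference among the 5 diets INHBA had an unadjusted p of 0.0474 and an adjusted p of 0.272 by edgeR, and the other 9 genes had adjusted p from 0.381 to 0.722.

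INHA, the alpha subunit found in inhibin alone, was at 1306, 1232 and 1190 CPM in M + E2. Its Sow values were 987.9 (unnumbered), 944.1 (Sow 2) and 971.1 CPM, the narrowest spread of any group (967.7 ± 22.11, SD, n = 3). All M + E2 libraries were above all Sow libraries and above the Milk libraries, which held 1110, 687.0 and 1059 CPM. INHA was at 964.1 (unnumbered), 881.6 and 545.7 CPM in Soy, and Soy 3 was the lowest of the 15 libraries. M + G contained the highest library and one of the lowest, with 1291, 743.9 and 1489 CPM. The means ran in the order M + E2 (1243 ± 58.98), M + G (1175 ± 386), Sow, Milk (952.2 ± 231.1) and Soy (797.2 ± 221.6), and no 2 diets differed at an unadjusted p under 0.05.

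INHBB, the beta B subunit of inhibin B and activin B, had 53.47, 72.72 and 55.16 CPM in M + E2. Sow held 43.99 (unnumbered), 32.42 (Sow 2) and 38.46 CPM and Soy 32.21 (unnumbered), 41.46 and 35.21 CPM, all below M + E2. In Milk the values were 31.78, 16.62 and 72.22 CPM, a 4.35-fold spread within 1 group that spanned almost the whole range of the 15 libraries. M + G had 61.11, 27.50 and 68.09 CPM. The mean in M + E2 was 60.45 ± 10.66 CPM and in Sow 38.29 ± 5.786 CPM (SD, n = 3), with Soy the lowest at 36.29 ± 4.715 CPM, and no comparison of INHBB reached an unadjusted p under 0.05.

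**Figure D1:**
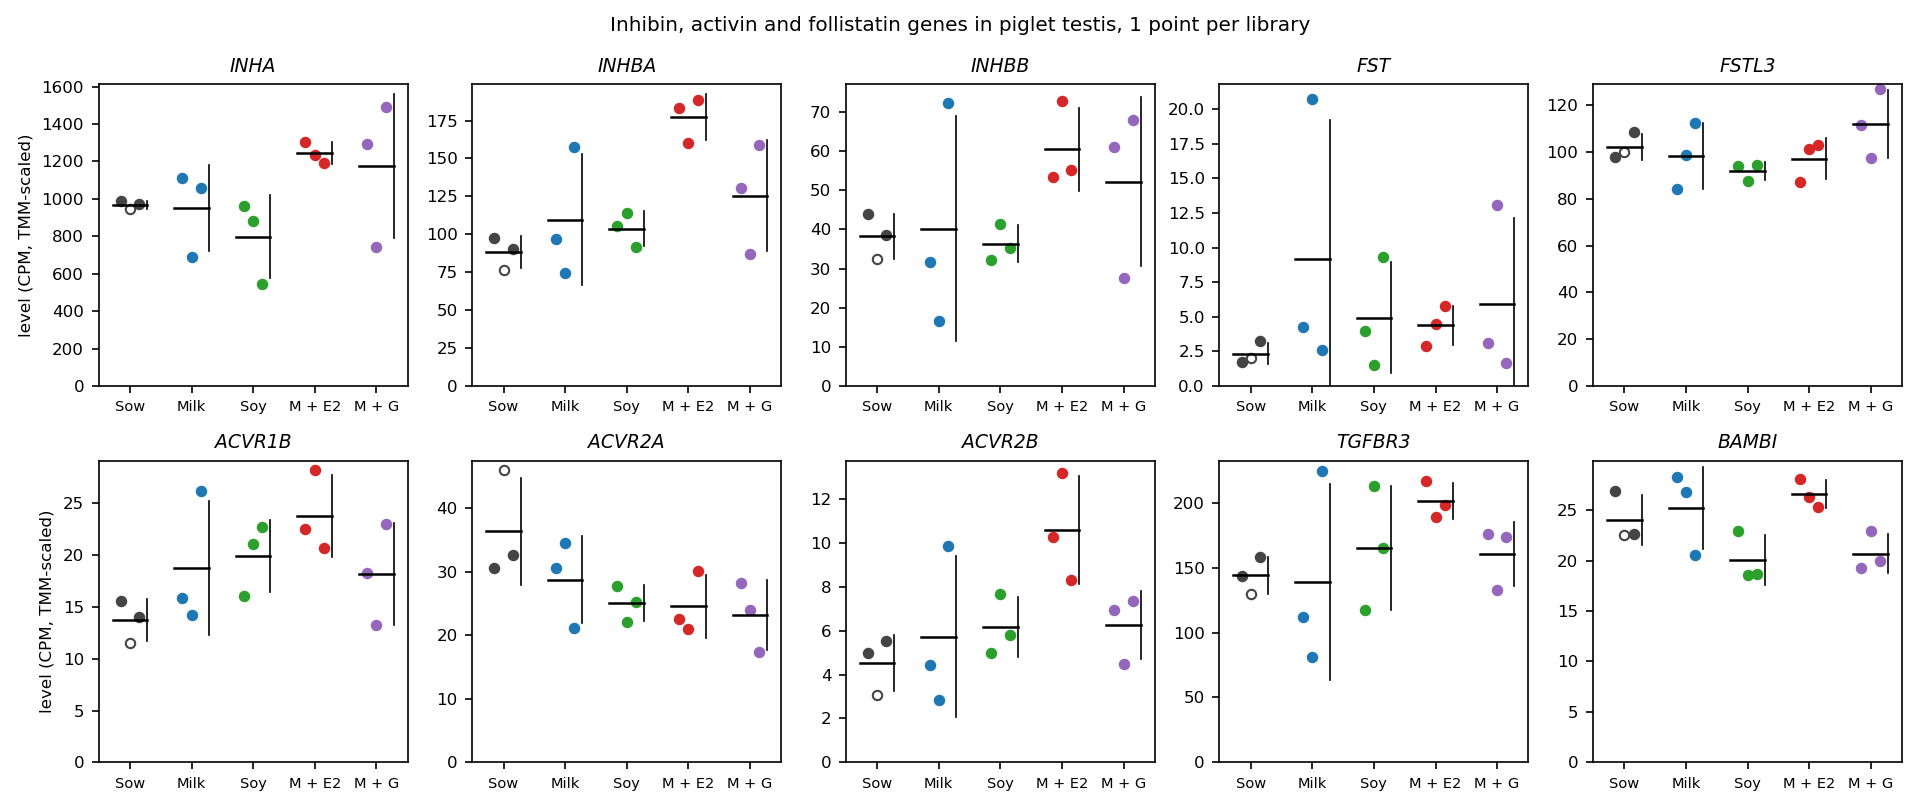
Level of each of the 10 genes (CPM on TMM-scaled library sizes, linear axis from 0) in the 5 diets, with 1 point per library, the group mean as a line and the SD as a bar drawn no lower than 0; the open circle is Sow 2, which the tests left out and the means shown include. The 3 M + E2 points of INHBA lie between 160.1 and 188.8 CPM, above all other libraries, and FST is above 9 CPM in Milk 2, Soy 3 and M + G 2 alone.

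The subunit genes varied together from library to library. Over the 15 libraries, which differ in diet and share within each library its depth and its mixture of cells, Pearson's r on log2 CPM was 0.85 between INHBA and INHBB, 0.73 between INHA and INHBA and 0.727 between INHA and INHBB. INHA was higher by less than INHBA in M + E2 than in Sow, so that the reads of INHA per read of INHBA in the same library were 7.04 ± 0.7 (SD, n = 3, range 6.3 to 7.69) in M + E2 and 11.1 ± 1.1 (10.2 to 12.3) in Sow. The ratio was 7.61 ± 1.59 in Soy, 9.12 ± 2.34 in Milk and 9.28 ± 0.655 in M + G. The M + E2 and Sow libraries did not overlap in this ratio, nor did Soy and Sow, M + G and Sow or M + E2 and M + G, while M + E2 overlapped with Milk and with Soy. For INHA per INHBB read, the groups overlapped more widely, with 21 ± 3.79 in M + E2, 25.6 ± 3.31 in Sow and a range from 14.7 to 41.3 within Milk. Ratios of reads depend on the lengths of the transcripts and were used only to compare libraries, without a test.

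**Figure D2:**
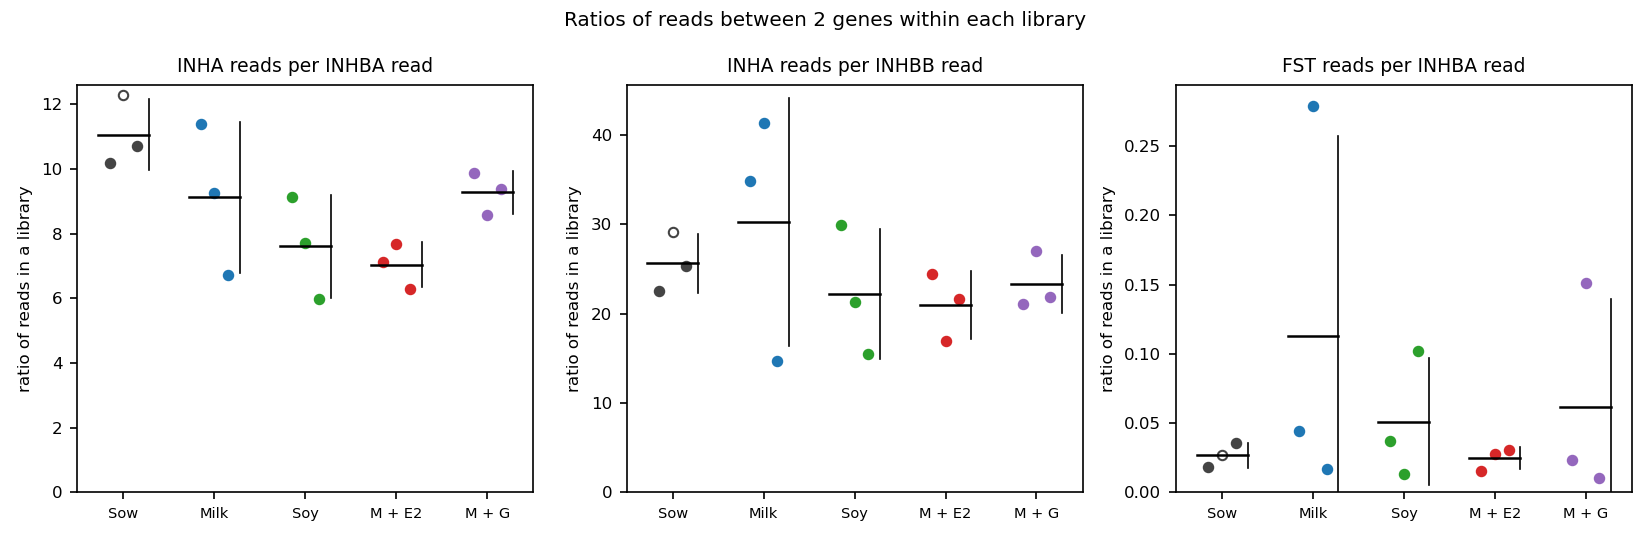
Ratio of the reads of 2 genes within each library (linear axes from 0): INHA per INHBA, INHA per INHBB and FST per INHBA, with 1 point per library, the group mean as a line, the SD as a bar drawn no lower than 0 and Sow 2 as an open circle. INHA per INHBA is from 6.3 to 7.69 in M + E2 and from 10.2 to 12.3 in Sow, and FST per INHBA reaches 0.279 in Milk 2.

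FST, which encodes follistatin, the secreted antagonist that traps activin, had the widest range of the 10 genes. Its level was 20.71 CPM in Milk 2, 13.07 CPM in M + G 2 and 9.344 CPM in Soy 3. The other Milk libraries held 4.287 and 2.615 CPM, the other M + G libraries 3.081 and 1.669 CPM and the other Soy libraries 3.944 (unnumbered) and 1.535 CPM. So 1 library of each of these 3 groups was high and the remaining ones were within the values of Sow (1.749 unnumbered, 2.044 in Sow 2 and 3.235 CPM) and M + E2 (2.890, 4.473 and 5.751 CPM) or just below them. The lowest and highest library were 13.5-fold apart, and the 95% interval of the log2 fold change of FST between M + E2 and Milk ran from −2.89 to 0.72, so that changes of several fold in FST could not be told from none.

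The 3 libraries with the most FST also had the least INHA, at 687.0, 743.9 and 545.7 CPM. Over the 15 libraries r between INHA and FST on log2 CPM was −0.612, and on deviations from the group means it was −0.889. Reads of FST per read of INHBA were 0.279 in Milk 2, 0.151 in M + G 2 and 0.102 in Soy 3, and 0.0247 ± 0.00784 (SD, n = 3) in M + E2 and 0.0268 ± 0.0089 in Sow.

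FSTL3, which encodes a second secreted binder of activin, was the steadiest of the genes, with a 1.51-fold range over the 15 libraries. Its values were 97.93 (unnumbered), 99.88 (Sow 2) and 108.5 CPM in Sow and 94.01 (unnumbered), 87.52 and 94.35 CPM in Soy, where every library was below every Sow library. M + G was highest with 111.7, 97.47 and 126.8 CPM, above all Soy libraries. Milk had 84.10, 98.96 and 112.4 CPM and M + E2 87.28, 101.2 and 103.2 CPM. No comparison of FSTL3 had an unadjusted p under 0.05, and the number of FSTL3 reads per FST read went from 4.78 in Milk 2 to 76 in M + G 3.

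ACVR2B was the receptor gene with the clearest difference, from low counts. It stood at 10.26, 13.16 and 8.307 CPM in M + E2 and at 4.977 (unnumbered), 3.067 (Sow 2) and 5.511 CPM in Sow. The Milk libraries held 4.434, 2.852 and 9.837 CPM, and Milk 3 was above 1 of the M + E2 libraries. Soy had 4.996 (unnumbered), 7.677 and 5.812 CPM and M + G 6.932, 4.497 and 7.343 CPM, all below M + E2. Means ran from M + E2 (10.58 ± 2.444, SD, n = 3) through M + G (6.257 ± 1.538), Soy (6.162 ± 1.374) and Milk (5.708 ± 3.663) to Sow (4.518 ± 1.285), with no neighbours at an unadjusted p under 0.05.

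Between M + E2 and Sow the log2 fold change of ACVR2B was 0.94 (SE 0.429, 95% interval 0.02 to 1.86; unadjusted p = 0.0465, edgeR adjusted p = 0.141). With all 3 Sow libraries it was 1.22 (edgeR adjusted p = 0.0268), a call that again depended on Sow 2. Between M + E2 and Milk it was 0.86 (SE 0.375, interval 0.05 to 1.67; unadjusted p = 0.0389, edgeR adjusted p = 0.264), and without Milk 3 it was 1.51 (adjusted p = 0.0204).

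ACVR2A, the other type II receptor, ran the opposite way. It was highest in Sow, with 30.54 (unnumbered), 46.00 (Sow 2) and 32.59 CPM, and lower in every library of M + E2 (22.54, 20.96 and 30.14 CPM), Soy (27.74 unnumbered, 22.15 and 25.30 CPM) and M + G (28.24, 23.95 and 17.36 CPM). The Milk values of 30.60, 34.47 and 21.17 CPM overlapped with Sow. Its lowest adjusted p was 0.233, between M + E2 and Sow, followed by 0.248 between M + G and Sow (both by edgeR). Over the 15 libraries r of ACVR2A was −0.739 with ACVR2B and −0.792 with ACVR1B.

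ACVR1B, the type I receptor of activin also known as ALK4, was at 15.60 (unnumbered), 11.54 (Sow 2) and 14.02 CPM in Sow and at 22.54, 28.25 and 20.66 CPM in M + E2. The Soy libraries, with 16.04 (unnumbered), 21.06 and 22.68 CPM, also lay above all Sow libraries. Milk had 15.82, 14.26 and 26.15 CPM and M + G 18.23, 13.28 and 23.03 CPM, each overlapping with Sow. ACVR1B and ACVR2B had r = 0.893 with each other over the 15 libraries.

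TGFBR3, which encodes betaglycan, the co-receptor that gives inhibin its hold on type II receptors, had 216.3, 189.0 and 198.3 CPM in M + E2, above Sow (143.7 unnumbered, 129.8 in Sow 2 and 158.4 CPM) and M + G (176.0, 132.4 and 173.8 CPM). Its highest and its lowest value were both in Milk, with 111.9, 81.10 and 224.0 CPM. Soy was at 117.7 (unnumbered), 213.0 and 165.0 CPM. BAMBI, a receptor-like protein without a kinase domain that dampens signals of the family, had 28.04, 26.33 and 25.35 CPM in M + E2, above all libraries of Soy (22.88 unnumbered, 18.53 and 18.69 CPM) and M + G (19.26, 22.90 and 19.91 CPM). Sow, with 26.90 (unnumbered), 22.49 (Sow 2) and 22.64 CPM, and Milk, with 28.23, 26.79 and 20.55 CPM, overlapped with M + E2. No comparison of ACVR1B, ACVR2A, TGFBR3 or BAMBI had an unadjusted p under 0.05.

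Against Sow, 8 of the 10 genes were higher in M + E2, with a median log2 fold change of 0.42 (0.01 over all genes tested). Such a contrast is described further by the genes with an unadjusted p under 0.05 and by the genes whose groups of libraries did not overlap at all. In M + E2 against Sow these counts held for 2 and 7 of the 10 genes and for 33.8% and 62.3% of all genes tested, while 5.0% of all were called. Thus the 10 genes did not stand above the share of all genes at an unadjusted p under 0.05, and the 7 genes without overlap, INHA, INHBA, INHBB, ACVR1B, ACVR2B and TGFBR3 above Sow and ACVR2A below, were close to the share over all genes. With all 3 Sow libraries INHBA and ACVR2B were called, when 18.1% of all genes were. With edgeR's exact test 5 of the 10 genes (INHBA, INHBB, ACVR1B, ACVR2B and TGFBR3) had an adjusted p of 0.05 or less, at less than 2-fold, against 41.5% of all genes.

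In M + G against Sow 0 of the 10 genes reached an unadjusted p under 0.05 (23.6% of all genes) and 1 did not overlap, ACVR2A (53.9% of all), with 0.0576% of all genes called. For Soy against Sow, 0 genes reached it (15.0%), and 4 did not overlap (37.3%), namely INHA, FSTL3 and ACVR2A, which were lower in Soy, and ACVR1B, which was higher; 0.0128% of all genes were called. Milk against Sow gave 0 genes (12.1%) and 0 without overlap (31.0%), at 0.0192% called. Leaving out FST, the 95% intervals of the log2 fold changes lay within −1.01 to 1.32 for M + G, within −1.2 to 1.15 for Soy and within −1.09 to 1.01 for Milk.

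Against Milk edgeR's quasi-likelihood test called no gene at all in any of the 3 comparisons (0% each). DESeq2's Wald test and edgeR's exact test called 122 and 92 genes in M + E2, 2 and 2 in M + G and 6 and 5 in Soy against Milk, none of them among the 10. M + E2 against Milk had 2 of the 10 genes at an unadjusted p under 0.05 (17.7% of all genes) and 2 without overlap, INHA and INHBA (17.5% of all). Without Milk 3, INHBA, INHBB, ACVR2B and TGFBR3 were called there, 4 of the 10 genes beside 8.04% of all genes. M + G against Milk and Soy against Milk had 0 of the 10 genes on either count (2.60% and 4.66% of all genes for M + G, and 2.44% and 4.62% for Soy). The intervals without FST were within −0.78 to 1.28 for M + G against Milk and within −1.02 to 0.96 for Soy against Milk.

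The remaining comparisons were among Soy, M + E2 and M + G, where Soy differs from the others in the base formula as well. Soy against M + E2 had 0.147% of all genes called, 1 of the 10 genes at an unadjusted p under 0.05 (13.0% of all) and 5 without overlap (20.6% of all), with INHA, INHBA, INHBB, ACVR2B and BAMBI lower in every Soy library than in every M + E2 library. With edgeR's exact test INHBA and INHBB had an adjusted p of 0.05 or less there, below the 2-fold limit, beside 2.45% of all genes. M + E2 against M + G had no call among all genes by the quasi-likelihood test (0%; 16 by DESeq2's Wald test and 99 by edgeR's exact test, none of the 10 among them), 0 of the 10 genes at an unadjusted p under 0.05 (7.01%) and 4 without overlap (19.2%), which were INHBA, ACVR2B, TGFBR3 and BAMBI, all higher in M + E2. Soy against M + G also had no call by the quasi-likelihood test (0%; 12 by DESeq2 and 8 by the exact test, again none of the 10), with 0 genes at that level (3.65%) and 1 without overlap, FSTL3 (7.89%). The test of any difference among the diets called 0 of the 10 genes and 0.0640% of all, and 1 gene, INHBA, was at an unadjusted p under 0.05, beside 18.1% of all genes. Contrasts with the same reference diet share its libraries and are not independent of each other.

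**Figure D3:**
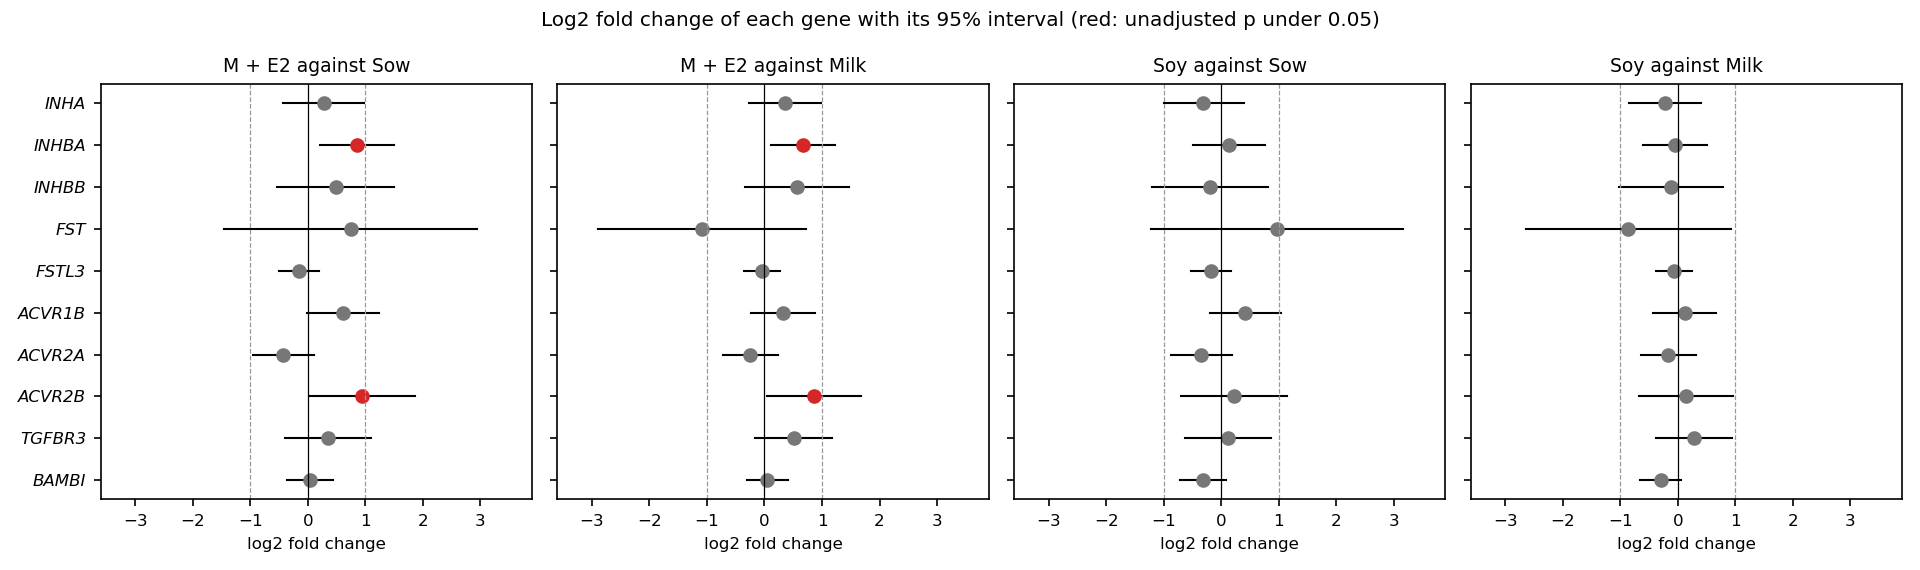
Log2 fold change of each of the 10 genes (x axis; dots) with its 95% interval (bars) from the fit of 14 libraries for M + E2 and Soy, each against Sow and against Milk; red marks an unadjusted p under 0.05 and dashed lines a 2-fold change. INHBA (0.85 against Sow and 0.67 against Milk) and ACVR2B (0.94 and 0.86) are the red genes, both for M + E2, and the intervals of FST are the widest.

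The levels of the subunit genes went along with those of Sertoli cell markers. The summed level of 8 such markers (AMH, SOX9, CLDN11, FSHR, DHH, WT1, GATA4 and KITLG) was from 2143 to 2268 CPM in M + E2, from 1057 to 1434 in Sow, from 770.6 to 1572 in Milk, from 1113 to 1390 in Soy and from 1123 to 1946 in M + G. The sum was thus highest in M + E2, without overlap. Singly, AMH, FSHR and WT1 were higher in every M + E2 library than in all other libraries, while SOX9, CLDN11, DHH, GATA4 and KITLG overlapped with other diets. Over the 15 libraries r of this sum on log2 CPM was 0.938 with INHBA, 0.894 with INHBB, 0.887 with ACVR2B and 0.783 with INHA. AMH, the anti-Müllerian hormone of immature Sertoli cells, alone gave from 1126 to 1274 CPM of the sum in M + E2, and the list was not uniform. Against Sow 5 of its 8 genes were higher in M + E2 and 3 lower, with none of the higher ones and 1 of the lower ones, KITLG, at an adjusted p of 0.05 or less (edgeR adjusted p = 0.0374). In bulk tissue, fewer cells of a type and less RNA per cell cannot be told apart.

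Relative to the summed reads of these markers, AMH included, INHBA did not set M + E2 apart. AMH, a large part of that sum, was itself higher in M + E2 (1126 to 1274 CPM) than in any other library (856.2 CPM or less). Ratios to the sum thus lean on AMH. No ratio without AMH was taken, so the place of INHBA relative to the other markers was not tested. Reads of INHBA per 100 reads of the Sertoli markers were 8.04 ± 0.849 (SD, n = 3) in M + E2, 8.17 ± 0.0781 in Soy, 7.99 ± 0.24 in M + G, 9.26 ± 0.987 in Milk and 6.98 ± 0.248 in Sow. The range in M + E2, 7.06 to 8.54, overlapped with that of every other diet, and Sow (6.78 to 7.26) was below all Milk, Soy and M + G libraries. On the same scale INHBB was at 2.73 ± 0.416 in M + E2 and 3.03 ± 0.0751 in Sow, and ACVR2B at 0.478 ± 0.103 and 0.353 ± 0.0657. INHA was lower in M + E2 by this measure, at 53.7 to 61 reads per 100 marker reads, than in Sow (68.9 to 89.4), Milk (67.4 to 93.2) and M + G (66.2 to 79.9), and overlapped with Soy (49 to 73.9). The level of AMH enters this measure too, so INHA was not shown to be lower relative to the other markers. In CPM INHA was higher in M + E2 than in every Sow and Milk library.

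Other summed cell markers also differed between M + E2 and Sow. The summed Leydig markers were at 13180 to 14110 CPM in M + E2 and 19380 to 20080 in Sow, germ cell markers at 256.7 to 301.7 and 152.5 to 198.5, endothelial markers at 537.3 to 711.6 and 213.4 to 355.5, and epithelial markers of epididymis or rete at 53.99 to 90.1 and 165.8 to 204.9. The germ cell list was not uniform, with 2 genes higher and 2 lower in M + E2 (median log2 fold change 0). KIT alone gave from 187.4 to 240 CPM of the germ cell sum in M + E2. Of the tested Leydig genes 4 were lower and 1 higher, while all 4 endothelial genes were higher and all 4 epithelial genes lower. KRT8 alone gave from 50.69 to 85.89 CPM of the epithelial sum in M + E2, and KRT19 and PAX8 were not found by symbol. The endothelial genes were higher than in Sow in every formula group (medians 0.88 to 1.02), with a median of −0.1 in M + E2 against Milk. The part of all these marker differences in the levels of the 10 genes was not tested.

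FST went along with smooth muscle genes. The sum of 5 markers of peritubular myoid cells, the contractile cells around the seminiferous cords (ACTA2, MYH11, CNN1, TAGLN and DES), was 3244 CPM in Milk 2, 2381 in M + G 2 and 4016 in Soy 3, the libraries with the most FST, and from 284.3 to 989.4 CPM in the other 12. Over the 15 libraries r on log2 CPM was 0.844 with FST and −0.698 with INHA. The course of FST was not particular to the myoid list. Its r was 0.817 with the summed markers of macrophages, 0.667 with those of red cells, 0.647 with endothelial and −0.666 with Leydig markers. No marker of the myoid list was at 0 in any library, and the part of any of these cell types in the level of FST was not tested. With these 3 libraries left out together, an alternative chosen after the data were seen, again none of the 10 genes was called in any comparison of diets, and the log2 fold change of INHBA between M + E2 and Milk was 0.45.

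**Figure D4:**
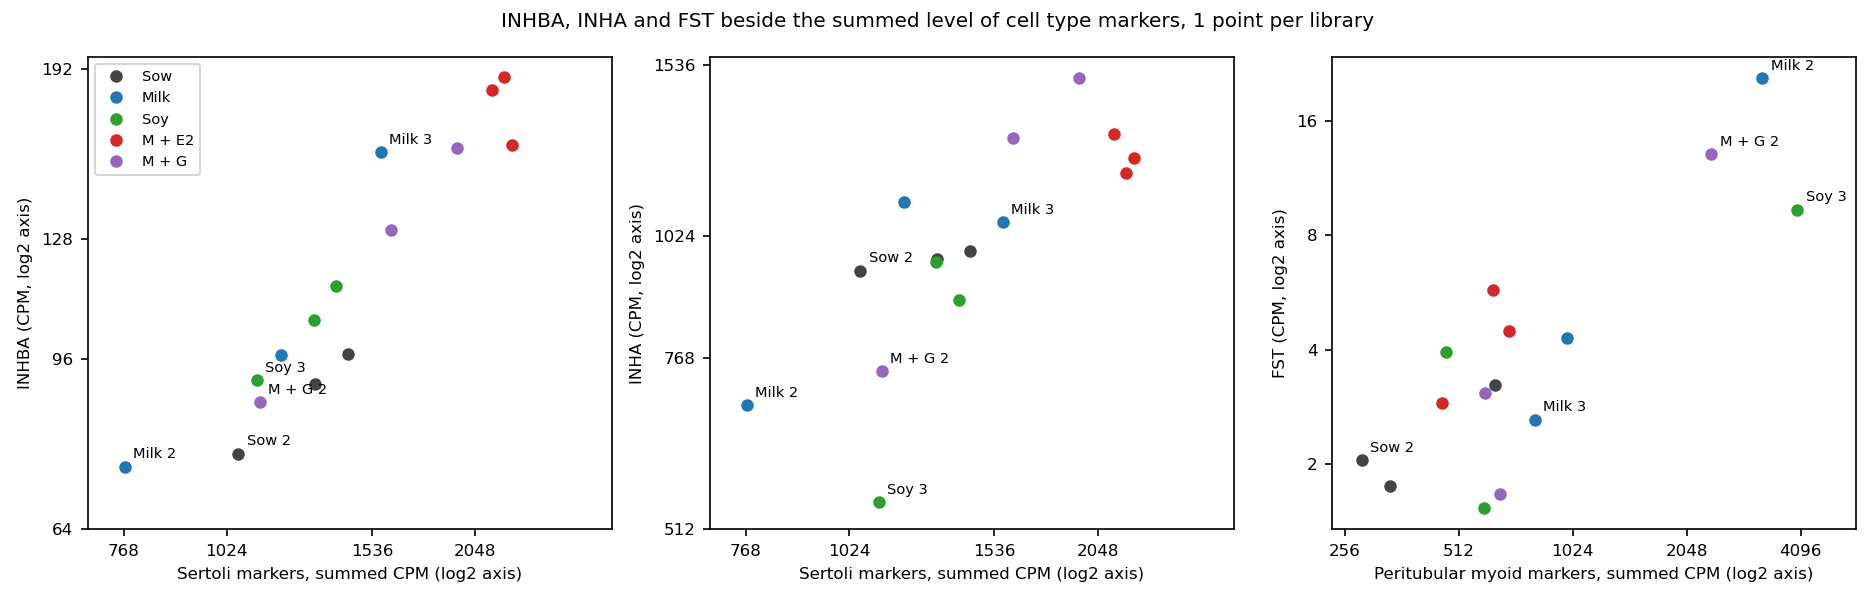
Level of INHBA and INHA against the summed level of 8 Sertoli cell markers, and of FST against that of 5 peritubular myoid markers (CPM, log2 axes), with 1 point per library coloured by diet and 5 libraries named. INHBA follows the Sertoli sum (r = 0.938) up to the 3 M + E2 libraries, and the 3 libraries with the highest myoid sums (2381 to 4016 CPM) have the most FST.

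Genes outside the set with a closely similar course over the libraries were sought among 12294 genes with a symbol. For INHBB the nearest were SYT2 (r = 0.956 on log2 CPM over 15 libraries), ADGRG1 (0.956) and SOX9 (0.948), the last a transcription factor of Sertoli cells. For INHBA they were FHOD3 (0.96), ROBO1 (0.96) and DRP2 (0.955). INHA ran most closely with AMHR2 (0.915), the receptor of anti-Müllerian hormone, ENO1 (0.914), a glycolytic enzyme, and ADORA1 (0.89). FST ran most closely with ATRNL1 (0.947), PRSS23 (0.942) and VLDLR (0.937). Without Sow 2 these 12 values stayed between 0.906 and 0.962.

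The wider pathway was read from 36 further genes in 4 roles, of which 29 were tested. Against Sow, 20 of the 29 were higher and 9 lower in M + E2, with a median log2 fold change of 0.22. In this contrast 781 of all 15634 genes were called, and a similar share of the 29, 2 genes. These were SMAD7, an inhibitory SMAD that blocks activin receptor signalling (log2 fold change 1.34, SE 0.202, edgeR adjusted p = 0.0242), and SKI, a co-repressor of SMADs (1.42, SE 0.407, adjusted p = 0.0499). SMAD7 was at 51.74, 49.46 and 42.60 CPM in M + E2 and at 17.35 (unnumbered), 13.58 (Sow 2) and 18.81 CPM in Sow. It was also above every Sow library in Milk (31.93, 36.34 and 35.99 CPM), Soy (28.93 unnumbered, 32.46 and 46.04 CPM) and M + G (43.78, 37.96 and 41.39 CPM). SKI had 87.00, 106.2 and 69.12 CPM in M + E2 and 27.31 (unnumbered), 20.01 (Sow 2) and 35.22 CPM in Sow. It was also above every Sow library in Milk (36.51, 48.24 and 88.16 CPM) and M + G (65.98, 59.72 and 74.76 CPM). Soy had 34.58 (unnumbered), 60.1 and 95.04 CPM of SKI, and Milk 3 and Soy 3 lay within the M + E2 range. Leaving out any one M + E2 library ended both calls, with adjusted p from 0.0684 to 0.14 for SKI and from 0.0651 to 0.11 for SMAD7.

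None of the 29 genes was called in the other contrasts with Sow by edgeR's quasi-likelihood test. At an unadjusted p under 0.05, 9 of the 29 were higher and 4 lower in M + G (23.6% of all genes in either direction), 10 higher and 1 lower in Soy (15.0%), 8 higher and 4 lower in Milk (12.1%) and 9 higher and 4 lower in M + E2 (33.8%). The median log2 fold changes in M + G, Soy and Milk were 0.2, 0.36 and 0.36. DESeq2's Wald test called 5 of the 29 in M + E2 against Sow (8.50% of all genes) and 2 in M + G against Sow, SMAD7 and TGFB3, a ligand of the TGF-beta receptors (2.11% of all), and edgeR's exact test called 5 in each (12.6% and 6.48% of all), while both tools called 0 in Soy and in Milk against Sow. By role, the 5 tested ligand genes were all higher than in Sow in M + G, Soy and Milk, with medians of 0.69, 0.54 and 0.93, and 3 of the 5 were higher in M + E2. The 9 tested receptor and co-receptor genes were higher in 7 cases in M + E2 (median 0.19), and the 11 SMAD genes with their partners in 7 cases (median 0.22). M + E2 against Milk split these 29 genes evenly, 14 higher and 15 lower (median −0.06), beside 7 higher and 3 lower among the 10 inhibin, activin and follistatin genes (median 0.34).

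Positions were taken by symbol from the RefSeq annotation of the pig assembly Sscrofa11.1. INHA lies on chromosome 15 (121581847 to 121586020), as do INHBB (30999994 to 31004405) and ACVR2A (4177333 to 4259056). FST is on chromosome 16 (32806341 to 32811382), FSTL3 on chromosome 2 (77656655 to 77662608), ACVR1B on chromosome 5 (17314322 to 17350726), ACVR2B on chromosome 13 (23237699 to 23276086), TGFBR3 on chromosome 4 (125109939 to 125310788) and BAMBI on chromosome 10 (40053368 to 40058590). For INHBA the annotation's entry under that symbol was of a biotype other than protein coding, whether it is the gene counted here was not determined, and no position is given. The counts cover whole genes and do not separate exons, introns or transcripts.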

How the data were processed

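RNA from 15 testes was sequenced as single-end reads. Trimming and mapping were done by the authors in the CLC Genomics Workbench, and the deposited table holds raw counts per gene and library. The number of columns not used was 0. Reads went first to a curated pig gene library and then to the Ensembl pig genome (Sscrofa11.1); which of these mappings the counts hold, and whether strand was used, is not given in the sources used here. The unnumbered Sow and Soy columns were assigned by group.

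Counts were analysed with edgeR 4.0.16 in R 4.3.3 (limma 3.58.1). TMM scaling, filterByExpr (minimum count 10) and the quasi-likelihood F test were applied in a single fit of 5 diets over 14 libraries without Sow 2, with Benjamini-Hochberg adjustment over 15634 genes. Sow 2 was left out because the study found its correlations with other libraries too low. Log2 CPM used a prior count of 1. The fit was tested on simulated data. Alternatives were DESeq2 1.42.0 (Wald test, size factors), the exact test, other filters, a fit of 2 groups alone, all 3 Sow libraries, each library left out, and a replicate block. Deviations from the group means of same-numbered Milk and M + G libraries had r of 0.233, 0.51 and 0.425, above the limit of 0.1 set for pairing. Those of Milk and M + E2 (−0.0643, −0.0937 and −0.339) were below it. The main fit held no replicate block in any comparison, that of M + G with Milk included. The block alternative put 1 block by number on the formula groups together, without the unnumbered Soy library. The authors tested with edgeR's exact test at an adjusted p of 0.05 or less and 2-fold.

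The 10 genes, the marker lists and the other pathway genes were chosen with earlier results of these data known. Named were all values of the 10 genes, fold changes at an unadjusted p under 0.05, the 3 genes most correlated with each of INHA, INHBA, INHBB and FST, and called pathway genes.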

Additional observations from a re-analysis of the deposited data

How the results depend on the processing

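Of 172 alternative settings for the 11 counts of called genes, 168 gave 0 as reported. For M + E2 against Sow, all 3 Sow libraries gave 2 genes, INHBA and ACVR2B, beside 2767 calls among all 15328 genes. Sow 2 in place of the unnumbered library gave 1, INHBA, beside 2891 calls among 15679 genes. Sow 2 in place of Sow 3 gave 2, INHBA and ACVR2B, beside 3324 calls among 15641 genes. Leaving out a library thus gave from 0 to 2 of the 10 genes, and all 3 of these exceptions hold Sow 2. For M + E2 against Milk leaving out a library gave from 0 to 4. The 4 came without Milk 3, whose INHBA, INHBB, ACVR2B and TGFBR3 levels were the highest of Milk, beside 8.04% of all genes called. The 104 alternatives for 7 fold changes all kept their direction. INHBA in M + E2 against Sow ranged from 0.791 to 1.025 on the log2 scale (adjusted p from 1.18e-06 to 0.159), ACVR2B from 0.756 to 1.383 (0.00463 to 0.317), and against Milk they ranged from 0.447 to 1.019 (0.021 to 0.552) and from 0.521 to 1.509 (0.0204 to 0.613). INHBA in Soy against M + E2 ranged from −0.788 to −0.635 (0.0189 to 0.555). With the replicate block, 0 of the 10 genes were called in the 6 comparisons among formula groups, as without it, and INHBA in M + E2 against Milk was 0.712 (adjusted p = 0.222). No paired fit was made against Sow, where 1 library of the 2 has no number. Mean ratios with FST rested on single libraries, and FST per INHBA was 0.0304 in Milk without Milk 2 (0.113 with it), 0.017 in M + G without M + G 2 (0.0617) and 0.0254 in Soy without Soy 3 (0.0509). With 2 or 3 libraries a group, intervals of the log2 fold changes reached from −2.89 to 4.02 for FST, and a change inside its interval could not be told from none.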
